A study of Mus musculus with 15 samples.

Results

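The neutrophil genes examined here were S100a8, S100a9, Csf3r, Cxcr2, Mmp8, Retnlg, Ngp, Camp, Ltf and Lcn2. They were chosen by symbol, as the 10 rows of a count table of 33340 mouse genes whose Ensembl identifiers map to these symbols. PolyA RNA of whole lungs was sequenced from C57BL/6 mice, which the methods describe as males of 10 to 12 weeks. Bleomycin, a DNA-damaging drug that inflames and scars the lung, was given into the trachea at 5 U/kg, and lungs were taken at day 0 (4 libraries), day 7 (4), day 14 (4) and day 21 (3). Of the day 0 libraries, replicates 1 to 3 carried no treatment in the labels. The title of replicate 4 called it a control but its treatment label gave bleomycin, so each call was also made without it. The design text gave fewer replicates per time point than the 15 titled libraries. No saline-treated lungs were among these libraries, so time after instillation and the instillation itself cannot be told apart.

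Neutrophils are short-lived granulocytes that are made in the bone marrow, circulate in blood and enter injured tissue along chemokine gradients. Their granules are filled in sequence while the cells mature: azurophil granules (Mpo, Elane) first, then specific granules (Ngp, Camp, Ltf, Lcn2, Mmp8), then gelatinase granules (Mmp9). The transcripts of the early granules are largely lost before the cells leave the marrow, whereas mature neutrophils carry those of S100a8, S100a9, Csf3r and Cxcr2. Several of the granule proteins are also made outside neutrophils, Lcn2 and Ltf by epithelia of the airway among others.

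Total counts ranged from 15652008 to 18020661 per library, and levels are given as CPM on the TMM-adjusted library size. All 10 genes passed the filter on low counts, among 17457 genes tested. A gene was called at an adjusted p under 0.05 with a fold change over 1.5, where adjusted p is that of edgeR's quasi-likelihood test across all genes and SE is the standard error of the log2 fold change. The labels do not say that libraries of a day came from separate mice, so p-values measure the spread between libraries. In bulk tissue, fewer cells of a type and less RNA per cell cannot be told apart.

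The members lie on 6 chromosomes in GRCm38 coordinates (GENCODE M21). S100a8 (ENSMUSG00000056054, chromosome 3, 90668978 to 90670035, plus strand) and S100a9 (ENSMUSG00000056071, chromosome 3, 90692632 to 90695721, minus strand) are neighbours, 22.596 kb apart with 0 protein-coding genes between them. Camp (ENSMUSG00000038357, chromosome 9, 109847379 to 109849617, minus strand), Ngp (ENSMUSG00000032484, chromosome 9, 110419747 to 110423012, plus strand) and Ltf (ENSMUSG00000032496, chromosome 9, 111019271 to 111042767, plus strand) follow each other at 570.129 kb and 596.258 kb. Mmp8 is on the same chromosome at a distance, and the others are on chromosomes 1 (Cxcr2), 2 (Lcn2), 4 (Csf3r) and 16 (Retnlg). None of the 10 overlaps another annotated gene.

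Promoter sequence is shown for S100a8 and S100a9, neighbours whose levels moved together, and for Ngp and Ltf, specific granule genes of the same chromosome whose highest values were in different libraries. RefSeq windows on GRCm38.p6 were used, in which the 250 bases before the transcription start were searched and bases inside GENCODE exons are not printed. Capitals mark matches to C/EBP (TTGCNNAA or TTNNGCAA) or PU.1 (AGGAAGT or ACTTCCT), the letters of 2 transcription factor families of granulocytes. S100a8 is at chr3:90668821-90668977 on the plus strand, S100a9 at chr3:90695722-90695971 on the minus strand, Ngp at chr9:110419558-110419746 on the plus strand and Ltf at chr9:111019042-111019270 on the plus strand.
S100a8: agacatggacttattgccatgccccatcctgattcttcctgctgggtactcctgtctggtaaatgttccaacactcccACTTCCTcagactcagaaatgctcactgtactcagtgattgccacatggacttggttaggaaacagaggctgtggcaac
S100a9: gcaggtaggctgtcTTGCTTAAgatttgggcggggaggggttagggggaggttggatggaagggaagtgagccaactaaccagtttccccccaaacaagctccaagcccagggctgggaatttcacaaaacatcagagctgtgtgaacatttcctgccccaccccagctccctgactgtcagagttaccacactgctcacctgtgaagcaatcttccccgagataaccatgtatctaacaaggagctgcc
Ngp: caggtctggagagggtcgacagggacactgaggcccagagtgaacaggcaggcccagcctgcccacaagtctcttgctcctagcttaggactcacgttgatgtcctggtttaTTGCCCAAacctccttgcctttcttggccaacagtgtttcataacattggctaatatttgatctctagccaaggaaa
Ltf: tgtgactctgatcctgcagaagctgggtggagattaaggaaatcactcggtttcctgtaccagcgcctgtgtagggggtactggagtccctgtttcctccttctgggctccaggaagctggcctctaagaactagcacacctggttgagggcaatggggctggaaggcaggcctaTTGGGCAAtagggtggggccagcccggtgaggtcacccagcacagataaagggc

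The C/EBP letters were found before the start of 6 of the 10 members (Lcn2, S100a9, Mmp8, Ngp, Ltf and Retnlg) and in 9.56% of the 32851 RefSeq promoters of the same length. For PU.1 the members were S100a8 and Mmp8, against 7.69% of promoters. The AP-1 letters (TGANTCA) and the kappa B letters (GGGANTTCC or GGAANTCCC) were found in 0 members and in 6.75% and 1.43% of promoters. The Lcn2 window lies inside a GENCODE exon of that gene and is not printed. Of S100a8, S100a9, Csf3r and Cxcr2, which were called lower, only S100a9 held the C/EBP letters and only S100a8 those of PU.1. Lcn2 and, through 1 library, Ltf were called higher, and both held the C/EBP letters alone. These genes are too few to tell whether a motif went with direction. Ngp held another C/EBP match, 11 to 4 bases before the start, inside a GENCODE exon and not printed.

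At day 0 the members spanned 2 orders of level. Per kilobase of exon, mean day 0 values were 487 ± 105 CPM per kb (SD, n = 4) for S100a9 and 136 ± 28.5 for S100a8. Retnlg (54.5 ± 21.1), Csf3r (46.3 ± 20.5) and Lcn2 (45.9 ± 5.54) followed, and differed from each other by less than their spread. Cxcr2 (21.0 ± 13.1), Mmp8 (12.4 ± 7.92), Ngp (10.1 ± 8.84), Ltf (6.47 ± 3.04) and Camp (3.58 ± 3.04) were lower, neighbours in this order again being within their spread. By day 7 the order had changed. Lcn2 was highest at 248 ± 53.5 CPM per kb, above S100a9 at 126 ± 72.6. It had the highest mean at days 14 (205 ± 71.2) and 21 (106 ± 32.9) too, within its spread of S100a9 at day 14 (189 ± 162). In day 21 replicate 1 Ltf was the higher, at 718 CPM against 187 CPM for Lcn2, and per kb too.

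Against day 0, S100a8, S100a9, Csf3r and Cxcr2 were called lower at days 7 and 21, and Csf3r and Cxcr2 at day 14 too. Lcn2 was called higher at all 3 days. At day 14 S100a8 and S100a9 had negative log2 fold changes that did not pass, and both passed without replicate 3 of that day. The day 14 calls of Csf3r and Cxcr2 were not met within libraries with a mitochondrial share of counts over 3.5%. At day 7, 4 of the 10 members fell (S100a8, S100a9, Csf3r and Cxcr2), where 7.36% of all genes tested fell, and 1 rose (Lcn2), where 8.78% rose. Day 14 had 2 members called lower (Csf3r and Cxcr2), against a background of 11.2%, and 1 called higher (Lcn2), against 12%. At day 21 the 4 that were lower at day 7 were lower again, against 10.1%, and Lcn2 and, through 1 library, Ltf were higher, against 12.4%. The median log2 fold change of the 10 members was -1.71 at day 7, -0.55 at day 14 and -2.45 at day 21, beside 0.01, 0.02 and 0.02 for all genes tested. Leaving out day 14 replicate 3 moved the day 14 median to -1.08, leaving out its replicate 4 gave -0.33, and leaving out day 0 replicate 2 gave -0.21. It turned to 0.0901 within libraries with a mitochondrial share of counts over 3.5%, where day 0 was left with replicates 3 and 4. The 3 comparisons share their day 0 libraries.

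**Figure D1:**
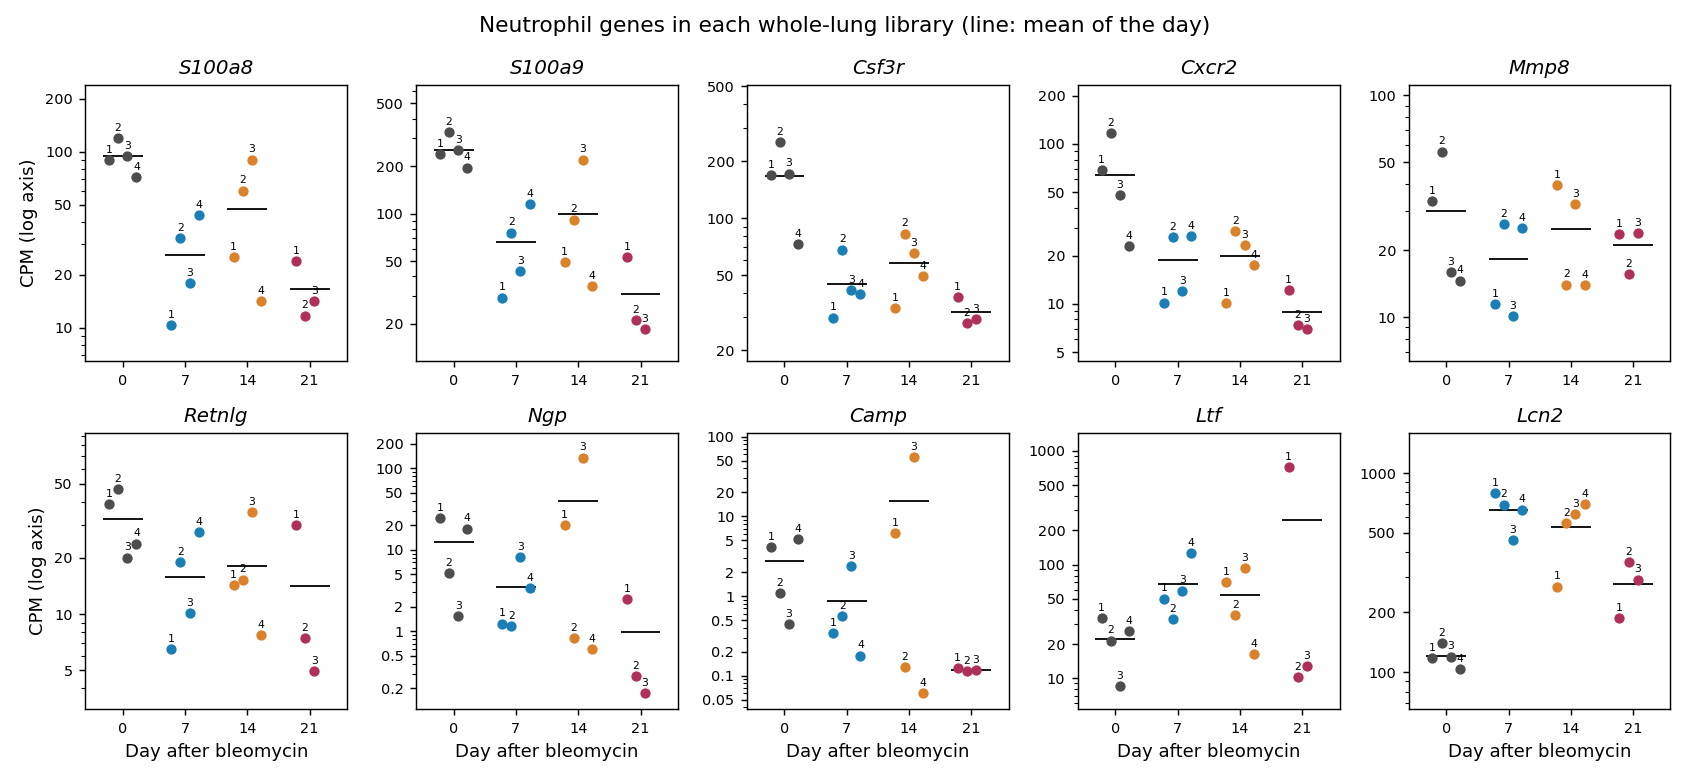
Level of each of the 10 neutrophil genes in every library, as CPM on a log axis by day after bleomycin, with points numbered by replicate and a line at the mean of each day (n = 4, 4, 4 and 3). S100a8, S100a9, Csf3r and Cxcr2 lay highest at day 0, Lcn2 lay higher in all 11 later libraries than in any day 0 library, and Ngp, Camp and Ltf each had 1 library far above the rest of its day.

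**Figure D2:**
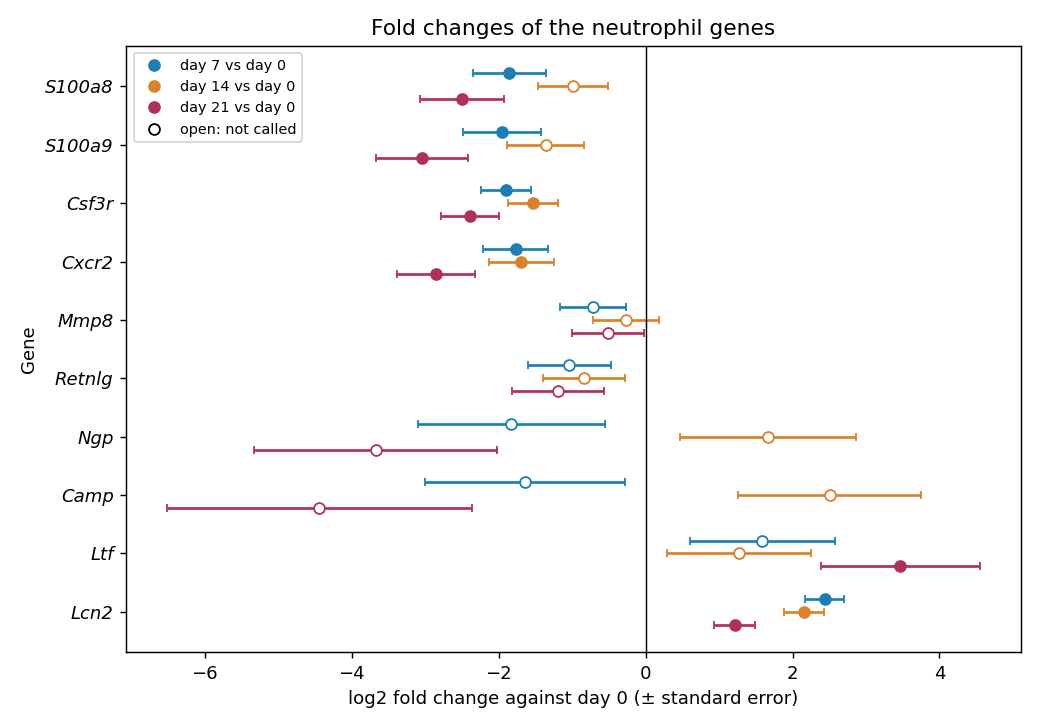
Log2 fold change of each member against day 0 with its standard error, for days 7, 14 and 21 (edgeR, 15 libraries). Filled points passed the call and open points did not. Csf3r and Cxcr2 were called lower and Lcn2 higher at all 3 days, the Ngp, Camp and Ltf estimates have the widest errors, and the Camp estimate at day 21 rests on 2 counts per library.

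Of the receptors, Csf3r binds granulocyte colony-stimulating factor, the cytokine that drives neutrophil production. Its level was 169, 254, 172 and 72.9 CPM in day 0 replicates 1 to 4, then 29.7, 68.2, 41.5 and 39.6 at day 7, 33.4, 82.9, 65.5 and 49.4 at day 14 and 38.0, 27.9 and 29.4 at day 21. Day 0 replicate 4 was the low library of its day, and day 14 replicate 2 was the single later library above it. The log2 fold change was -1.90 (SE 0.34, adjusted p = 0.0014) at day 7, -1.53 (SE 0.34, adjusted p = 0.00302) at day 14 and -2.39 (SE 0.39, adjusted p = 0.00039) at day 21.

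Cxcr2 is the chemokine receptor through which neutrophils follow CXC ligands out of the blood. It stood at 68.4, 117, 47.7 and 23.1 CPM at day 0, 10.2, 26.3, 12.1 and 26.6 at day 7, 10.2, 28.5, 23.2 and 17.4 at day 14 and 12.2, 7.41 and 7.00 at day 21. Day 0 replicate 4 overlapped the later days up to day 14, and all 3 day 21 libraries lay below it. Fitted log2 fold changes were -1.77 (SE 0.45, adjusted p = 0.0104), -1.69 (SE 0.44, adjusted p = 0.00889) and -2.85 (SE 0.53, adjusted p = 0.00092) in day order. Both receptors kept their call at all 3 days without day 0 replicate 4. Within libraries with a mitochondrial share of counts over 3.5% (2 at day 0 and 3 at day 14), Csf3r was at -0.90 (adjusted p = 0.106) and Cxcr2 at -0.62 (adjusted p = 0.206), so neither day 14 call was met there. Those 2 day 0 libraries were replicates 3 and 4, of which replicate 4 was the low library of its day for both genes.

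S100a8 and S100a9 encode the calcium-binding subunits of calprotectin, the most abundant cytosolic protein of neutrophils. For S100a8 the values were 89.8, 119.8, 94.9 and 72.0 CPM at day 0, 10.3, 32.3, 18.0 and 43.5 at day 7, 25.2, 60.1, 90.3 and 14.2 at day 14 and 24.0, 11.7 and 14.2 at day 21. S100a9 was at 239, 328, 253 and 196 CPM, 29.3, 75.7, 43.3 and 115, 49.2, 91.6, 220.1 and 34.8 and 52.7, 21.0 and 18.5 on the same days. Every day 7 and day 21 library lay below every day 0 library for both genes, while at day 14 replicate 3 reached the day 0 range and the other 3 did not.

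S100a8 fell at day 7, with a log2 fold change of -1.86 (SE 0.50, adjusted p = 0.0139), and at day 21, with -2.502 (SE 0.57, adjusted p = 0.00402). Its day 14 value was -0.99 (SE 0.48, adjusted p = 0.129). S100a9 also fell at days 7 (-1.95 (SE 0.53, adjusted p = 0.0153)) and 21 (-3.05 (SE 0.63, adjusted p = 0.00199)) and was at -1.36 (SE 0.52, adjusted p = 0.0563) at day 14. The day 14 results depended on the fit: without day 14 replicate 3 they were -1.51 (adjusted p = 0.0277) and -2.12 (adjusted p = 0.00414), both called. With that library kept, limma voom called both (-1.31 and -1.71, adjusted p = 0.0411 and 0.0193), and S100a9 was also called with no filter (adjusted p = 0.0128), on the 2 days alone (adjusted p = 0.0473) and once the mitochondrial share of counts entered the fit (-1.61, adjusted p = 0.0347). With the log2 mitochondrial share as a covariate the day 7 values were -1.59 (adjusted p = 0.0887) and -1.58 (adjusted p = 0.0993), and neither was called. Within libraries with a share under 2.5% they were -2.03 (adjusted p = 0.0134) and -2.12 (adjusted p = 0.0108), and both were called. That share ranged from 2.28% to 4.22% at day 0, 2.03% to 2.15% at day 7, 2.102% to 4.14% at day 14 and 2.66% to 4.01% at day 21, and its part in these results was not tested beyond these fits.

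The ratio of S100a9 to S100a8 within a library was nearly constant between libraries at the outset, from 2.66 to 2.73 at day 0. It ranged from 2.34 to 2.85 at day 7, 1.52 to 2.46 at day 14 and 1.303 to 2.20 at day 21. All 7 libraries of days 14 and 21 were below the day 0 range. This ratio was examined after its values were seen and was not tested.

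Mmp8 encodes neutrophil collagenase, and Retnlg a resistin-like secreted protein found in mature neutrophils. Mmp8 was at 33.5, 55.8, 16.0 and 14.6 CPM at day 0, 11.4, 26.3, 10.1 and 25.1 at day 7, 39.3, 14.0, 32.3 and 13.9 at day 14 and 23.6, 15.7 and 23.9 at day 21. Retnlg was at 38.7, 46.6, 20.1 and 23.8, 6.51, 18.9, 10.2 and 27.4, 14.2, 15.3, 35.0 and 7.73 and 30.1, 7.41 and 4.94 CPM on those days. For both genes each later day overlapped the range of day 0. Neither was called in any comparison: the log2 fold changes from day 7 to day 21 were -0.71, -0.27 and -0.51 for Mmp8 (adjusted p from 0.263 to 0.685) and -1.04, -0.84 and -1.195 for Retnlg (adjusted p from 0.165 to 0.272). Without day 21 replicate 1, Retnlg at day 21 was at -2.42 (adjusted p = 0.0132). Within libraries with a mitochondrial share under 2.5%, Mmp8 (-1.31, adjusted p = 0.0438) and Retnlg (-1.45, adjusted p = 0.0465) met the call at day 7.

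Lcn2 encodes lipocalin 2, a specific granule protein that sequesters bacterial siderophores and is also secreted by injured epithelium. Its level was 118, 139, 119.7 and 104 CPM at day 0, 794, 694, 459 and 656 at day 7, 269, 562, 620.2 and 696 at day 14 and 187, 358 and 292 at day 21. All 11 later libraries were above the highest day 0 library. Lcn2 rose by a log2 fold change of 2.44 (SE 0.27, adjusted p = 4.6e-05) at day 7, 2.16 (SE 0.27, adjusted p = 3.2e-05) at day 14 and 1.21 (SE 0.28, adjusted p = 0.00406) at day 21. From day 14 to day 21 the difference was -0.94 (adjusted p = 0.316), and without day 14 replicate 1, the low library of that day, it was -1.18 (adjusted p = 0.0297).

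Lcn2 and the calprotectin genes took different shares of the group before and after treatment. Lcn2 made up 12.8% to 18.7% of the summed CPM of the 10 members at day 0, 61.7% to 84.2% at day 7, 45.2% to 81.8% at day 14 and 17.2% to 77.9% at day 21, where the low value was replicate 1 with its high Ltf. The ratio of Lcn2 to S100a8 was 1.16 to 1.45 at day 0 and 6.87 or more in each later library. The sum of the 10 members hid this exchange. It ranged from 555.9 to 1088 CPM at day 0 and from 402.9 to 1371 CPM afterwards. Without Lcn2 and Ltf, the other 8 summed to 426 to 927 CPM at day 0, 99.1 to 280.3 at day 7, 138 to 658 at day 14 and 91.6 to 183 at day 21.

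Ngp (neutrophilic granule protein) and Camp (the precursor of the cathelicidin antimicrobial peptide) are specific granule genes transcribed in marrow myelocytes. Ngp was at 24.5, 5.20, 1.52 and 18.2 CPM at day 0, 1.25, 1.17, 8.07 and 3.39 at day 7, 20.03, 0.8291, 136 and 0.604 at day 14 and 2.47, 0.285 and 0.176 at day 21. Camp was at 4.14, 1.09, 0.444 and 5.19, 0.340, 0.558, 2.36 and 0.178, 6.203, 0.128, 55.6 and 0.0604 and 0.124, 0.114 and 0.118 CPM. Single libraries set these values: day 14 replicate 3 was the highest of all 15 for both, day 14 replicate 1 came next among the treated libraries, and within day 0 replicates 1 and 4 were above replicates 2 and 3.

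Neither gene was called against day 0. Ngp had log2 fold changes of -1.83 (SE 1.27, adjusted p = 0.309), 1.67 (SE 1.197, adjusted p = 0.306) and -3.68 (SE 1.65, adjusted p = 0.105) at days 7, 14 and 21. Without day 14 replicate 3 the day 14 value was -0.78 for Ngp and -0.35 for Camp, against 1.67 and 2.51 with it. Camp had 2, 2 and 2 counts in the 3 day 21 libraries and 182 counts over the 4 day 0 libraries, a ratio of day 0 to day 21 of 23.4 with an exact 95% interval of 10.6 to 64.7 that covers counting error only. Its day 21 estimate had an adjusted p of 0.114 in edgeR across all 15 libraries. It was 0.0235 in DESeq2 and 0.00859 in edgeR on the 2 days alone, where Ngp also passed (0.0449 and 0.0305).

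The genes most like the mean of Ngp and Camp over the 15 libraries, by Pearson's r of log2 CPM among 13873 genes with a mean of at least 1 CPM, were Slc4a1 (r = 0.90), Ifitm6 (0.80), Khsrp (0.77), Trim10 (0.77), Wdr44 (0.69) and Tspan33 (0.68). Slc4a1 encodes the band 3 anion exchanger of the red cell membrane. Without day 14 replicate 3 the 6 values ran from 0.55 (Tspan33) to 0.86 (Slc4a1), with Khsrp at 0.65. In that library Slc4a1 was at 28.1 CPM, against 0.362 to 18.6 CPM in the other 14. The hemoglobin genes and Alas2 did not stand out there: Hba-a1 (224.5 CPM), Hba-a2 (6.12), Hbb-bs (713), Hbb-bt (108) and Alas2 (15.6) lay within the range of the other day 14 libraries, as did the summed level of the 7 listed erythroid genes (1101 CPM, against 649 to 1712).

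Mpo (myeloperoxidase) and Elane (neutrophil elastase), the azurophil genes that define earlier granulocytes, were near 0 in most libraries. Mpo had 7, 0, 2 and 7 counts at day 0, 0, 2, 7 and 0 at day 7, 17, 0, 50 and 0 at day 14 and 0, 2 and 0 at day 21, and did not pass the filter on low counts. Elane had 3, 0, 0 and 13, 0, 0, 2 and 2, 15, 0, 49 and 0 and 1, 2 and 0 counts. Both were highest in day 14 replicate 3, with replicate 1 of that day next. The azurophil and progenitor list had 8 of its 9 genes in the table and 3 tested, of which 0 were called at any day (0 also at an unadjusted p under 0.05), and its summed level was 2.06 to 3.51 CPM at day 0, 1.79 to 3.52 at day 7, 0.906 to 16.2 at day 14 and 1.25 to 2.04 at day 21. No gene of that list was at 0 throughout a day. What set day 14 replicate 3 apart was not tested.

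**Figure D3:**
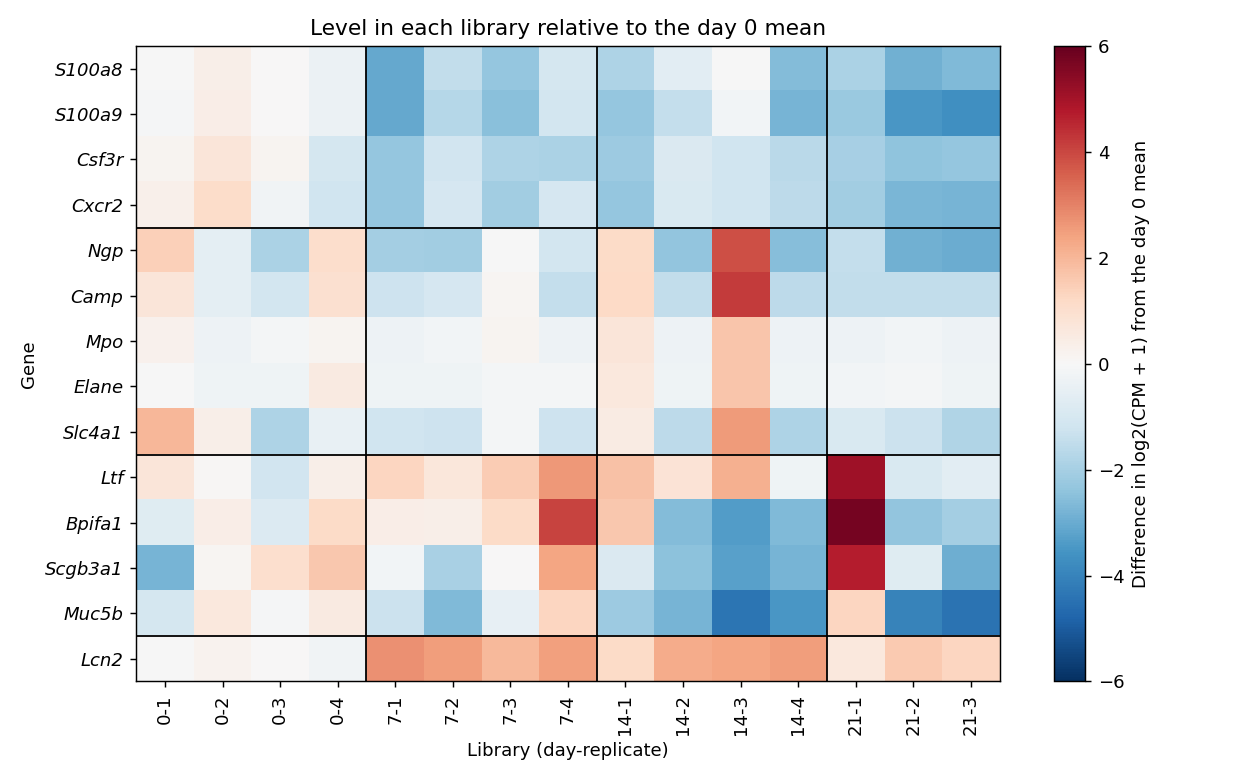
Difference of log2(CPM + 1) from the day 0 mean for 14 genes (rows) in the 15 libraries (columns, day-replicate), with mature neutrophil genes, early granulocyte genes with Slc4a1 (shown as the gene most like Ngp and Camp, not for the erythroid list), Ltf with airway secretory genes, and Lcn2 in separate blocks. Day 14 replicate 3 was high in the second block, day 21 replicate 1 and day 7 replicate 4 in the third, and every library after day 0 in the Lcn2 row.

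Ltf encodes lactoferrin, an iron-binding protein of specific granules and of glandular secretions. It was at 33.6, 21.4, 8.51 and 25.8 CPM at day 0, 50.1, 32.9, 59.0 and 126 at day 7, 70.6, 35.7, 92.9 and 16.4 at day 14 and 718, 10.2 and 12.8 at day 21. Day 21 replicate 1 was far above every other library, and the other day 21 libraries were within the day 0 range. The log2 fold changes were 1.59 (SE 0.99, adjusted p = 0.254) at day 7, 1.27 (SE 0.98, adjusted p = 0.345) at day 14 and 3.47 (SE 1.08, adjusted p = 0.0248) at day 21. The day 21 call rested on 1 library: without replicate 1 the value was -0.99 (adjusted p = 0.305). It was also lost in limma voom (1.16, adjusted p = 0.495), with a replicate block (2.30, adjusted p = 0.194), in the fit of the 2 days alone (adjusted p = 0.0705), once the mitochondrial share entered the fit (adjusted p = 0.0617) and without day 0 replicate 2, 3 or 4 (adjusted p = 0.0565, 0.0665 and 0.0539). Over all alternatives the adjusted p ran from 0.00281 to 0.495.

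Airway secretory genes moved with Ltf in individual libraries. Bpifa1 and Scgb3a1, secreted proteins of the upper airway epithelium, were at 1045 and 791 CPM in day 21 replicate 1 and at 330.3 and 154 CPM in day 7 replicate 4, the 2 libraries highest in Ltf. In the other 13 libraries they ranged from 0.915 to 59.6 CPM and from 2.17 to 92.3 CPM. Muc5b, a gel-forming mucin, was at 106 and 104 CPM in those 2 libraries and at 66.0 CPM or less in the others. Over all genes tested, 7.36%, 11.2% and 10.1% were lower at days 7, 14 and 21, and 8.78%, 12% and 12.4% higher. Of the 9 airway secretory genes 2, 4 and 2 were lower at those days and 0 were higher. Their summed level, mostly Scgb1a1, was 27200 to 33907 CPM at day 0, 9531 to 12939 at day 7, 2972 to 7205 at day 14 and 1469 to 7735 at day 21, and none was at 0 throughout a day. The part of airway cells in the Ltf level was not tested.

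Within days Ltf followed Ngp, and the 2 libraries that stood out were the highest of their day in both genes, to unequal degrees. Day 14 replicate 3, highest in Ngp and Camp, had Ltf at 92.9 CPM and Bpifa1 at 0.915 CPM, while day 21 replicate 1, highest in Ltf, had Ngp at 2.47 CPM and 2 counts of Camp. The 6 genes most like Ltf, a comparison added after its values were seen, had r from 0.75 to 0.80 over the 15 libraries: Nek2, Calml3, Abtb2, Creb3l1, Tprn and Gp2. Without day 21 replicate 1 their r ranged from 0.53 to 0.75.

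Within days, the members fell into groups that rose and fell together from library to library. Deviations of log2 CPM from the day mean were correlated over the 15 libraries for all 45 pairs, with p from 100000 permutations within days and adjusted over the 45 pairs. For S100a8 with S100a9, Pearson's r was 0.96 and Spearman's rho 0.95 (permutation p = 7e-05 and 0.0003, adjusted p = 0.0027), and r was 0.94 without the 2 libraries farthest from the median. Csf3r with Cxcr2 had r = 0.90 and rho = 0.79 (permutation p = 0.00026 and 0.00329, adjusted p = 0.00371), and 0.82 without 2. Ngp with Camp had r = 0.91 and rho = 0.83 (permutation p = 0.00137 and 0.00216, adjusted p = 0.0103), and 0.82 without 2.

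Retnlg followed S100a9 (r = 0.91, rho = 0.87, permutation p = 0.00012 and 0.00024, adjusted p = 0.0027, r = 0.89 without 2). Ltf passed with Ngp (r = 0.66, rho = 0.80, permutation p = 0.00112 and 0.00212, adjusted p = 0.0101, r = 0.66 without 2) and with Retnlg (r = 0.78, rho = 0.76, permutation p = 0.00771 and 0.00769, adjusted p = 0.038, r = 0.62 without 2). In all, 11 of the 45 pairs passed at an adjusted p under 0.05, all positive. The median r was 0.62 over the 15 pairs among S100a8, S100a9, Csf3r, Cxcr2, Mmp8 and Retnlg. It was 0.33 over the 12 pairs of these 6 with Ngp and Camp, with a range of -0.24 to 0.59. Without 2 libraries those 12 ran from -0.50 (S100a8 with Camp) to 0.58 (Mmp8 with Ngp), and S100a9 with Camp went from 0.33 to -0.40. For the 6 genes with Lcn2 the median r was -0.02, with a range of -0.22 to 0.32 over 6 pairs. None of the 9 Lcn2 pairs passed. The lowest r of all was -0.55, between Ltf and Lcn2.

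**Figure D4:**
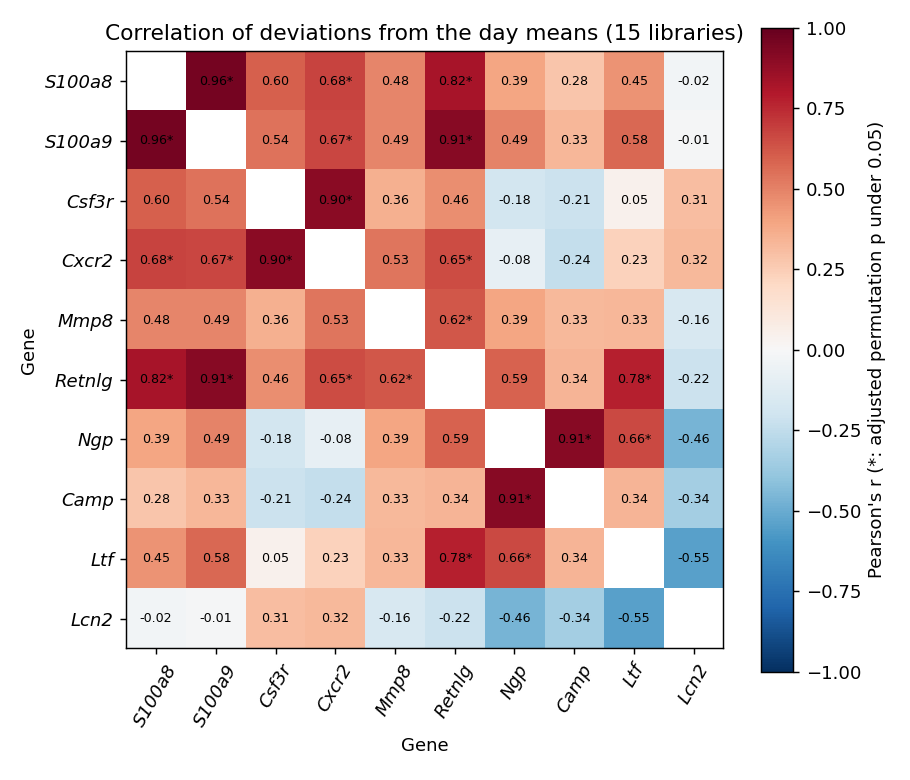
Pearson's r between members of the deviations of log2 CPM from the day mean over 15 libraries, with an asterisk where the adjusted permutation p was under 0.05 (11 of 45 pairs). S100a8, S100a9, Cxcr2 and Retnlg form a positive block, Ngp passed with Camp and Ltf, and the Lcn2 row holds no asterisk.

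Between all libraries, the genes most like the mean of S100a8 and S100a9 were Trem3 (r = 0.93), Dedd2 (0.89), Mxd1 (0.88), Rasgrp4 (0.88), Mmp9 (0.87) and Rab44 (0.86). Trem3, an activating receptor of myeloid cells, fell at day 7 (-1.37 (SE 0.44, adjusted p = 0.0321)) and day 21 (-1.95 (SE 0.50, adjusted p = 0.00856)). Those most like Lcn2 were others: Gja1 (r = 0.97), Itga7 (0.96), Hsd11b2 (0.96), Gdf15 (0.95), Frmd8 (0.94) and Slc26a4 (0.94). Gdf15, a stress-induced cytokine of the TGF-beta superfamily, had log2 fold changes of 3.94 (SE 0.23, adjusted p = 2.2e-07), 3.41 (SE 0.23, adjusted p = 3.4e-07) and 2.60 (SE 0.24, adjusted p = 4.4e-06) at days 7, 14 and 21. These likenesses are descriptions over libraries that share the day structure.

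Among the other markers of mature neutrophils, more were lower than higher at each day. Of 24 listed genes 23 were tested, and 8 were lower and 1 higher at day 7, 8 lower and 2 higher at day 14, and 14 lower and 2 higher at day 21 (median log2 fold change -0.95, -0.84 and -1.29). Ly6g, the surface antigen that defines mouse neutrophils, was scarce, at 1.55, 1.15, 1.46 and 2.06 CPM at day 0, 0.453, 0.112, 0.769 and 0.238 at day 7, 0.295, 0.0638, 2.80 and 0.00 at day 14 and 0.247, 0.0570 and 0.118 at day 21. It was highest in day 14 replicate 3 and lowest in day 14 replicate 4, where it had no count. It fell at day 21 (-3.42 (SE 1.196, adjusted p = 0.0379)) and was at -1.96 and -0.95 at days 7 and 14 (adjusted p = 0.126 and 0.421).

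Nlrp12, an inhibitory NOD-like receptor of neutrophils, fell at days 7 (-1.74), 14 (-2.05) and 21 (-2.48, adjusted p = 0.00101). Mrgpra2b, a Mas-related receptor of neutrophils, fell at days 14 (-2.25) and 21 (-3.85, adjusted p = 0.00384), and Cxcr1, the second CXC receptor of the family, at day 21 (-3.05, adjusted p = 0.0041). With the mitochondrial share as a covariate 5 genes of the mature neutrophil list were called at day 7 in place of 9. Over all 17457 genes tested the calls went from 2818 to 1269.

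The other granule genes did not move one way. Of 22 listed, 18 were tested, with 3 higher and 1 lower at day 7, 3 higher and 2 lower at day 14 and 3 higher and 4 lower at day 21 (median -0.11, 0.03 and -0.18). Mmp9, the gelatinase of the last granules, went from 29.5 to 93.2 CPM at day 0 to 18.7 to 37.1 at day 7, 17.3 to 33.3 at day 14 and 10.2 to 19.3 at day 21, and fell at all 3 days (-1.11 (SE 0.32, adjusted p = 0.0197), -1.28 (SE 0.32, adjusted p = 0.00635) and -2.17 (SE 0.37, adjusted p = 0.0005)). Cd177, a surface and granule glycoprotein used as a neutrophil activation marker, rose at every day, from 4.38 to 10.6 CPM to 28.9 to 77.7, 45.7 to 253 and 122 to 775 CPM (log2 fold change 2.49, 3.66 and 5.85, adjusted p = 0.00865, 0.00048 and 3.4e-05). Orm1, an acute-phase glycoprotein also made by liver, rose at every day as well (3.51, 4.62 and 4.85). Lyz1, a lysozyme, fell at days 14 (-2.65) and 21 (-3.09), and Chil1, a chitinase-like protein, at day 21 (-2.28).

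Signals that draw or sustain neutrophils were higher in part. Of 20 listed chemoattractants and growth factors 17 were tested, with 6 higher and 1 lower at day 7, 5 higher and 1 lower at day 14 and 5 higher and 2 lower at day 21 (median 0.54, 0.70 and 0.86). Cxcl5, a ligand of Cxcr2, was at 0.453, 0.484, 0.381 and 0.00 CPM at day 0 and at 1.49 to 2.38, 1.49 to 2.72 and 1.08 to 4.08 CPM at days 7, 14 and 21, so every later library was above every day 0 library. It rose by 2.57 (SE 0.57, adjusted p = 0.00477), 2.58 (SE 0.57, adjusted p = 0.00273) and 2.93 (SE 0.59, adjusted p = 0.00168). Cxcl1, another ligand, rose at day 7 (1.41 (SE 0.45, adjusted p = 0.0335)) and was at 0.90 and 1.200 later (adjusted p = 0.145 and 0.0722).

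Cxcl2 was not called (0.49, 1.13 and 0.86, adjusted p from 0.216 to 0.636). Csf3, the ligand of Csf3r, was at 0 to 0.866 CPM across the 15 libraries and did not pass the filter. Ppbp, a platelet-derived Cxcr2 ligand, fell at all 3 days (-1.33, -2.21 and -2.52, adjusted p = 0.0495, 0.00292 and 0.00318). Saa3, an acute-phase protein, had the largest change of the list and rose at all 3 days (4.72, 4.48 and 5.67), and Il23a, an interleukin 23 subunit, rose at each (2.77, 3.62 and 3.44) from 0 to 0.302 CPM at day 0. Il6 rose at days 14 (3.08) and 21 (2.23).

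Genes of adhesion and of the NADPH oxidase, which neutrophils share with monocytes and macrophages, were more often higher than lower. All 18 listed were tested, with 7 higher and 0 lower at day 7, 12 higher and 1 lower at day 14 and 11 higher and 1 lower at day 21 (median 0.49, 1.001 and 0.73). Cybb, the catalytic oxidase subunit, went from 60.4 to 89.97 CPM at day 0 to 99.8 to 135, 144 to 198 and 125 to 246 CPM at days 7, 14 and 21, and rose by 0.63, 1.26 and 1.24 (adjusted p = 0.0228, 0.00015 and 0.00033). Fcgr3, a low-affinity IgG receptor, rose by 0.93, 1.86 and 1.83. Selp, the endothelial and platelet P-selectin on which leukocytes roll, rose by 1.26, 1.31 and 1.81. Itgam, the CD11b integrin chain, rose at days 14 (1.35) and 21 (1.11). At day 7 the count depended on the fit: 1 gene of the list was called once the mitochondrial share entered, and 3 without day 7 replicate 1. Over all genes, calls went from 2818 to 1269 and to 2053 in these fits.

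Red cell transcripts also fell. Of 7 erythroid genes, 4 were lower at day 7, 6 at day 14 and 6 at day 21, and 0 were higher. Their summed level was 1305 to 4395 CPM at day 0, 502.3 to 1398 at day 7, 649 to 1712 at day 14 and 401.6 to 707 at day 21, with no gene at 0 throughout a day. The hemoglobin gene Hbb-bt was at 516, 207, 134 and 319 CPM at day 0 and fell after treatment (log2 fold change -1.80, -1.64 and -2.65). Hba-a2, uncertain because reads it shares with its near-identical copy Hba-a1 were left out of the counts, fell too (-1.69, -2.03 and -3.05), and Alas2, the erythroid heme synthesis enzyme, was lower at days 14 (-2.01) and 21 (-2.64). Within libraries with a mitochondrial share over 3.5%, 0 of the erythroid genes were called at day 14. Over all genes 2990 of 16938 were called there, against 4040 of 17457 in the fit of all 15 libraries.

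Of 8 platelet genes, 3 were lower at day 7, 5 at day 14 and 1 at day 21, where 1 was higher, and the summed level was 48.9 to 86.5 CPM at day 0, 34.6 to 53.2 at day 7, 28.2 to 53.1 at day 14 and 41.4 to 76.1 at day 21. Gp9, a platelet glycoprotein, was called lower at days 7 (-1.15) and 14 (-1.22). Whether the amount of blood in the lungs had a part in the neutrophil values was not tested.

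Of the 5 pan-leukocyte genes 0 were called lower. None was called at day 7, where 2 of 5 had an unadjusted p under 0.05 in edgeR, 2 were higher at day 14 and 1 at day 21, with a summed level of 482 to 725 CPM at day 0, 607 to 835 at day 7, 723 to 791 at day 14 and 479 to 881 at day 21. Laptm5, a lysosomal protein of all leukocytes, rose at days 14 (0.80) and 21 (0.61). Of 8 monocyte genes 2, 2 and 3 were lower and 0 were higher, among them Cd300e (-1.33, -3.17 and -2.58). Of 9 alveolar macrophage genes 3, 2 and 3 were lower and 0, 2 and 1 higher, with Krt79 lower at each day (-1.92, -4.49 and -6.31) and Mrc1 higher at days 14 (1.75) and 21 (2.07). Of 12 eosinophil, basophil and mast cell genes 6 were tested, with 1 higher and 1 lower at day 14 and 0 called at days 7 and 21, where 0 and 3 had an unadjusted p under 0.05 in edgeR. Of 9 alveolar type 2 genes 0, 5 and 9 were lower, with Sftpc at -0.99 at day 14 and -2.39 at day 21.

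Between the treated days the members did not pass the test. No member was called from day 7 to day 14, where 6% of all genes were, or from day 14 to day 21, where 0% were (0 of 17457 in edgeR, with 1714 at an unadjusted p under 0.05 and 101 called by DESeq2). The median log2 difference of the members was 0.41 from day 7 to day 14 and -1.05 from day 14 to day 21. At an unadjusted p under 0.05, Ngp (3.496) and Camp (4.15) differed between days 14 and 7, and S100a8 (-1.51), S100a9 (-1.69), Csf3r (-0.86), Cxcr2 (-1.16), Ngp (-5.34), Camp and Lcn2 between days 21 and 14. DESeq2 called Camp from day 7 to day 14 and Ngp and Camp from day 14 to day 21. Without day 14 replicate 3 the edgeR differences of Ngp and Camp were 1.04 and 1.3002 from day 7 to day 14 (adjusted p = 0.611 and 0.52) and -2.88 and -4.09 from day 14 to day 21 (adjusted p = 0.635 and 0.594).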

How the data were processed

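RNA-seq reads were from 15 whole-lung libraries. As deposited, the table holds raw counts per Ensembl gene with no normalization. The authors trimmed paired reads of 150 bases with TrimGalore 0.6.10. Alignment was to mm10 (GRCm38) with HISAT2 2.1.0, multi-mapped reads were left out, and reads were counted with HTSeq 0.6.0, per the submitters' processing notes and the study's methods. Annotation release and strand setting are not given in the sources used here. Reads shared by near-identical genes were therefore lost from both, and antisense overlap could not be resolved, although no member overlaps another gene.

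The 10 members and the 13 other gene lists were chosen with earlier results of these data known. Groups and replicate numbers came from sample titles. GENCODE M21 matched 33267 of 33340 identifiers, and the others held 0.00889% of counts. Counts were tested with edgeR 4.0.16 in R 4.3.3 (limma 3.58.1), using filterByExpr, TMM factors, glmQLFit and glmQLFTest on day in 1 fit of all 15 libraries. Benjamini-Hochberg adjustment covered 17457 genes, and the call used the thresholds given above (0.05 and 1.5-fold). Log2 CPM used a prior count of 2. All members are named, and of every other list the called genes, at most 4 with the largest change, plus Ly6g, Mpo, Elane, Mmp9, Cxcl1, Cxcl2, Cxcl5, Csf3, Sftpc, Scgb1a1 and the genes most like a member. Bpifa1, Scgb3a1, Slc4a1, and Trem3 and Gdf15 among the likeness genes, were singled out after their values were seen, and 1 gene is not reported here. Libraries of a day differed by more than sampling noise (chi-square per degree of freedom of at least 10.9). Intervals hold for counting error alone, because reads copied in PCR are not separate molecules. The fitting code was tested on simulated data. Alternatives were DESeq2 1.42.0, limma voom, RLE and total count scaling, other filters, the compared days alone, a replicate block, the mitochondrial share (16 genes) and leaving out each library. Correlations were computed with scipy 1.17.1 and numpy 2.4.6, and RefSeq promoters on GRCm38.p6 matched all 10 members.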

Additional observations from a re-analysis of the deposited data

Results flagged for a closer look

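Of 30 sets of 4 libraries tested (the 10 members at days 0, 7 and 14), 2 held a library farther from the others than Dixon's 95% critical value for 4 samples allows. Both were day 14 replicate 3, with Ngp at 135.6 CPM (ratio of gap to range 0.856, others from 0.604 to 20.03 CPM) and Camp at 55.6 CPM (0.889, others from 0.0604 to 6.203 CPM). The ratio was taken on CPM and not on log2 CPM, where a single high value weighs less. The 2 genes are correlated, and chance flags about 1 in 20 sets. Day 21, with 3 libraries, was not tested this way, so the Ltf value of 718 CPM in its replicate 1 has no such test.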

How the results depend on the processing

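Of the counts of called members, 81 of 90 alternative values stayed within 1.5 times the reported count. At day 7, 3 members were called with the mitochondrial share as a covariate, while calls over all genes went from 2818 to 1269. At day 14, 5 members were called by limma voom (3980 over all genes, against 4040). Within libraries with a share over 3.5%, 1 was called (2990 over all genes), and the median log2 fold change of the members was 0.0901. DESeq2 called 1 member from day 7 to day 14 and 2 from day 14 to day 21 (1634 and 101 over all genes). The fit with no filter called 2 members from day 7 to day 14 (1283 over all genes, against 1048). Leaving out each library gave 3 to 5 at day 14, 0 to 1 from day 7 to day 14 and 0 to 1 from day 14 to day 21. The cause of these differences was not tested.

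Single members changed sign in 21 values. With each library left out in turn, the log2 fold change against day 0 ranged from -0.59 to 0.20 for Mmp8, -0.78 to 2.20 for Ngp and -0.35 to 3.02 for Camp at day 14, and -0.99 to 3.98 for Ltf at day 21. Day 14 against day 7 ranged from -0.17 to 1.0004 for S100a9, -0.15 to 0.30 for Cxcr2, -0.34 to 0.61 for Retnlg and -0.71 to 0.19 for Ltf. Day 21 against day 14 ranged from -0.45 to 0.0561 for Mmp8, -1.55 to 0.18 for Retnlg and -2.24 to 2.74 for Ltf. Within libraries with a share over 3.5%, Mmp8 at day 14 was 0.38. By limma voom at day 14, Ngp was -0.27 and Camp -0.24. With the share as a covariate, S100a9 (-0.0323) and Retnlg (-0.0006) turned between days 7 and 14.

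Among the other named genes, leaving out libraries gave -0.0846 to 0.0357 for Lamp3, -1.44 to 0.10 for Muc5b and -0.079 to 0.15 for Scgb3a2 at day 7, -0.48 to 0.12 for Chil1 at day 14, and -0.88 to 0.49 for Marco and -5.16 to 0.15 for Muc5b at day 21. With the covariate, Cxcr1 (0.061) and Lamp3 (0.10) turned at day 7 and Marco (-0.11) at day 21. By limma voom Marco was -0.16. Within libraries with a share over 3.5%, Chil1 was 0.17 and Treml1 0.085.

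Same-numbered libraries of different days deviated together more often than others, but not throughout. Of 21 such pairs 9 correlated over 0.1 across genes (median 0.09, range -0.27 to 0.45). With different numbers it was 14 of 63 pairs (median -0.03, range -0.38 to 0.31). The numbers were not taken as pairs in the fit reported above, and what they stand for was not tested. The fit with a replicate block called 5 members at day 7, 3 at day 14 and 5 at day 21, where Ltf (2.30) lost its call, and 0 in both later comparisons. Marco at day 21 was -0.0167 with the replicate block. The median within-day correlation of members stayed within 1 SD of 0.39 under the 17 alternatives chosen after seeing the data. Mpo and Elane had at most 17 counts in each library but day 14 replicate 3, and Camp 1 to 3 counts in 6 libraries.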
